A study of Mus musculus with 44 samples.

Results

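Npas4, Nr4a1, Nr4a2 and Nr4a3 were followed across all libraries as 4 of the 17158 genes listed in the deposited tables. They were picked out by RefSeq accession, but the choice was made with earlier results of these data known. The libraries came from C57BL6J mice and measured mRNA (RNA-seq, 12 libraries), ribosome-protected fragments (RPFs, 12 libraries) and poly(A) tails (TAIL-seq and PAL-seq v2, 10 libraries each). Of the 9 cortical cultures, all made from newborn pups and each pooled from several pups and kept with cytosine arabinoside against dividing cells, 6 were harvested at day 14 in vitro (DIV14). One was left unstimulated, one had 30 min of BDNF and one 30 min of glutamate plus glycine (glu/gly), while a lentivirus with the synapsin promoter had brought GFP, miR-1 or miR-155 into the other 3 at day 5. The other 3 were harvested at DIV10 after 0, 10 or 30 min of KCl. The 3 tissues were the hippocampus and the cortex of adult males, from 1 animal each, and the hippocampus of embryos at day 16. The visual cortex was taken from 8 male mice of 6 to 7 weeks that had spent 1 week in the dark, of which 4 had then seen light for 1 h. Each culture and tissue gave 1 library per assay, so that only the 8 mice were replicated, and intervals elsewhere cover counting error alone.

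Each of the 4 genes encodes a transcription factor of the early response to neuronal activity, whose transcription needs no new protein synthesis. Npas4 is a bHLH-PAS factor that is largely particular to neurons, depends on calcium entry and pairs with an Arnt protein to bind DNA. Nr4a1, Nr4a2 and Nr4a3 are orphan nuclear receptors, which act without a known classical ligand and bind DNA as monomers or dimers. Nr4a2 is also known as a lasting identity factor of midbrain dopamine neurons and of some cortical neurons. Calcium and cAMP reach such genes through CREB, which binds the cAMP response element, and serum response factor and MEF2 are further activators.

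Npas4 (NM_153553, 8 exons) lies on chr19:4984354-4989971 of GRCm38.p6, on the minus strand, and Nr4a1 (NM_010444, 7 exons) on chr15:101266846-101274795, on the plus strand. Nr4a2 (NM_013613, 8 exons) lies on chr2:57107226-57115038, on the minus strand, and Nr4a3 (NM_015743, 8 exons) on chr4:48045305-48086446, on the plus strand. The 4 genes share copies of the half-site of the cAMP response element near their starts, and a few are shown because 3 of the genes rose together with light. The letters TGACG were searched on both strands (CGTCA on the other strand), from 250 bases before to 50 after the start of the listed transcript, and they are in capitals below, with each sequence written 5′ to 3′ on the gene's strand. Such a window held at least 1 half-site in 27.8% of 17004 listed transcripts, at least 2 in 7.68% and at least 4 in 0.423%. Npas4 held 2, Nr4a1 4, Nr4a2 3 and Nr4a3 4.
Npas4, chr19:4990138-4990158, 179 bases before the start: ccgttcgaCGTCAcgggatga
Npas4, chr19:4990128-4990148, 169 bases before the start: tcacgggaTGACGtcggaagt
Nr4a1, chr15:101266769-101266789, 69 bases before the start: gccgtgtgCGTCAgtggcgcc
Nr4a1, chr15:101266798-101266818, 40 bases before the start: tctccatgCGTCAcggagcgc
Nr4a2, chr2:57115073-57115093, 47 bases before the start: cccagtcgTGACGtcaggtcg
Nr4a3, chr4:48045092-48045112, 205 bases before the start: cgtcacatTGACGtctcgcat
Nr4a3, chr4:48045150-48045170, 147 bases before the start: ggcataaaTGACGtgccgaga

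In the Nr4a2 window the forward and the reverse half-site overlapped as the full palindrome TGACGTCA, which 2.89% of the windows held and those of the other 3 genes did not. RefSeq also places a start of Nr4a2 further upstream, and the window there (chr2:57123954-57124253) held 4 half-sites without overlap. No window of the 4 genes held the letters TATAAA, found in 6.16% of windows, or a CArG box, the site of serum response factor, found in 1.29%. These are matches of letters, and binding was not measured.

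Levels are given as CPM, counts scaled to 1000000 counts on listed genes in the same library. The counts behind the genes were small in many libraries, which sets how firmly each value can be read. Reads on genes ran from 448022 to 7689624 in RNA-seq and from 817114 to 23212489 in RPF libraries, and tags from 389654 to 1057812 in TAIL-seq and from 86841 to 4812273 in PAL-seq. Npas4 had 2 to 117 RNA-seq reads per library, Nr4a1 4 to 764, Nr4a2 0 to 588 and Nr4a3 2 to 1702. Nr4a3 was listed in none of the 20 tail libraries, and Nr4a2 had 6 tags in all 10 TAIL-seq libraries together. All 7 neuron markers were detected in every RNA-seq library. In the cultures, 4 oligodendrocyte markers together reached 4.17 to 15.1 CPM, against 1131 in adult hippocampus, and 4 microglia markers reached 0 to 18.5, against 258.8. The cultures were not free of other cells, since 5 astrocyte markers reached 922 to 1820 CPM, against 3041 in adult hippocampus, and 4 progenitor markers 43.6 to 298, against 37.5. In bulk samples such as these, fewer cells of a type and less RNA per cell cannot be told apart.

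The comparison of light with dark asked how an hour of vision changed expression in the visual cortex of dark-adapted mice. Tags of Nr4a1, Nr4a2 and Npas4 all rose, Nr4a1 most. The 4 dark mice had 23.7, 32.5, 44.4 and 102.3 CPM of Nr4a1 tags, and the 4 light mice 979, 1076, 723 and 536. Tag levels of the mice are TMM-scaled, except for summed markers. Every light mouse lay above every dark mouse, and the dark mouse nearest to them was the fourth. Nr4a1 rose 17.5-fold (95% interval 11.8 to 26.001; log2 fold change 4.13 ± 0.27, SE, n = 4 per group; edgeR quasi-likelihood test, adjusted p = 7.46e-10), the fifth largest rise among 9554 genes tested.

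Nr4a2 was far less abundant. It had 0.678, 2.264, 3.11 and 0.793 CPM in the dark mice, from 1 to 11 tags each, and 18.013, 19.3, 20.7 and 13.2 in the light mice, from 22 to 36 tags each. The groups again did not overlap, and the light mice lay close together. Nr4a2 rose 9.26-fold (5.27 to 16.3; log2 fold change 3.21 ± 0.39, SE, n = 4 per group; edgeR, adjusted p = 1.09e-05).

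Npas4 had 2.71, 2.68, 6.23 and 13.5 CPM in the dark mice and 41.8, 56.7, 31.1 and 21.6 in the light mice. The fourth dark mouse, high for Nr4a1 as well, came nearest to the fourth light mouse, the lowest of its group for each of the 3 genes. Npas4 rose 7.15-fold (4.09 to 12.5; log2 fold change 2.84 ± 0.39, SE, n = 4 per group; edgeR, adjusted p = 5.17e-05). Of all genes tested, 1.21% were called higher in light, and in 3.13% all 4 light mice lay above all 4 dark mice, against 3 of the 3 members tested on either count. The members were chosen with earlier results of these data known, so these counts are no independent support. Each call held with any 1 mouse left out, but without the fourth dark mouse the log2 fold change of Npas4 was 3.45. Nr4a3 could not be tested.

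**Figure D1:**
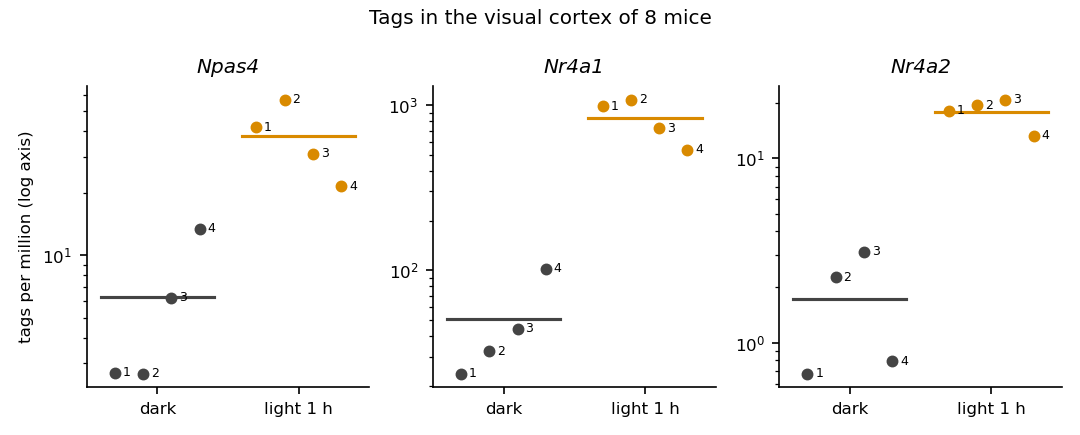
CPM of tags (TMM-scaled, log axis) of Npas4, Nr4a1 and Nr4a2 in the visual cortex of 4 dark and 4 light mice. Points are mice, with their number, and lines are group means. Every light mouse lies above every dark mouse for the 3 genes, and dark mouse 4 is the highest dark mouse for Npas4 and Nr4a1 but not for Nr4a2.

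Among mRNAs of related function, most other early-response transcription regulators rose as well, and no other tested member of the 2 protein families passed the test. Of 20 such regulators 15 were tested and 14 rose, with a median log2 fold change of 1.85 against -0.0047 over all genes. This list, too, was chosen with earlier results of these data known, so the count is no independent support. Egr2, Fosb and Egr4 had larger rises than Nr4a1, the first 2 by 5.33 ± 0.39 and 4.52 ± 0.30 on the log2 scale (SE, n = 4 per group; edgeR, adjusted p = 2.99e-09 and 7.46e-10). Both encode early-response factors, of the zinc-finger and the leucine-zipper kind. Egr4 stood at 4.18, within its SE of Nr4a1, and the next were Fos (3.91), Egr1 (3.15), Fosl2 (3.14), Junb (2.36) and Egr3 (1.85). Of 9 other bHLH-PAS factors tested, which include the Arnt partners, none was called (edgeR; 0 also at an unadjusted p under 0.05), and the median log2 fold change was -0.05. Of 21 other nuclear receptors tested, none was called in either direction and 2 were lower at an unadjusted p under 0.05. Of 24 activators upstream of such genes, 2 rose: Srf, the serum response factor itself, by 0.75 ± 0.13, and Crem, which encodes modulators that bind the cAMP response element, by 0.69 ± 0.17 (log2, SE, n = 4 per group; edgeR, adjusted p = 0.00150 and 0.0391). Another 1 of them was lower at an unadjusted p under 0.05 but was not called. Its log2 fold change was -0.67 ± 0.17 (SE, n = 4 per group, edgeR, adjusted p = 0.0572).

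No marker of neurons, glia or vessels was called between light and dark, but summed astrocyte markers did not overlap between the groups and were lower in light. The share of all genes with every light mouse below every dark mouse was not computed. The 5 astrocyte markers together ran from 3557 to 4400 CPM in dark mice and from 3186 to 3476 in light mice, and the 4 oligodendrocyte markers from 589 to 942 and from 381 to 708. Neuron markers ran from 8572 to 9737 and from 8791 to 9959. These sums were scaled to tags on listed genes without TMM factors. At an unadjusted p under 0.05, 2 of 5 astrocyte and 2 of 4 oligodendrocyte markers were lower in light. Among all 9554 genes tested, in either direction, an unadjusted edgeR p of 0.0498 stood at rank 901. The part of these shifts in the results for Npas4 and the Nr4a genes was not tested.

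Likeness across the 8 mice is a description over points that share the split into light and dark. Npas4 was most like Arc (Pearson r = 0.995), Dusp1 (0.984) and Fos (0.983), in log2 CPM. Nr4a1 was most like Dusp6 (0.992), Egr4 (0.991) and Ccn1 (0.989). Nr4a2 was most like Ptgs2 (0.988), Bdnf (0.987) and Eif5a2 (0.985). Between members, r was 0.976 for Npas4 and Nr4a1, 0.922 for Nr4a1 and Nr4a2 and 0.850 for Npas4 and Nr4a2.

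The BDNF and glu/gly cultures asked how these mRNAs and their translation change within 30 min of stimulation. Npas4 and Nr4a1 were higher in each assay after either stimulus, whereas Nr4a2 and Nr4a3 had RPF ratios of at most 2.01 and few RNA-seq reads. Npas4 had 2 RNA-seq reads in the unstimulated DIV14 culture, 117 after BDNF and 83 after glu/gly, or 3.93, 244 and 138 CPM. The ratios were 62.1 for BDNF (95% counting interval 16.8 to 519) and 35.1 for glu/gly (9.42 to 295), wide because the control had only 2 reads. RPFs of Npas4 gave a firmer control, with 91 in the unstimulated culture, 1122 after BDNF and 1193 after glu/gly. On RPFs Npas4 was 14.5-fold higher after BDNF (11.7 to 18.1) and 20.2-fold higher after glu/gly (16.3 to 25.3). TAIL-seq tags numbered 3, 53 and 43.

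Nr4a1 had 9 RNA-seq reads in the unstimulated DIV14 culture and 49 after each stimulus. It was 5.78-fold higher after BDNF (2.81 to 13.4) and 4.60-fold higher after glu/gly (2.24 to 10.7). Its RPFs went from 155 to 724 and 663, or 5.48-fold (4.60 to 6.56) and 6.60-fold (5.53 to 7.91), and its tags from 45 to 219 and 210, or 4.80-fold (3.47 to 6.77) and 6.09-fold (4.39 to 8.596). The intervals of Nr4a1 overlapped between the 3 assays, and on RPFs they lay below those of Npas4. The comparisons with BDNF and with glu/gly share the unstimulated library. On RNA-seq reads this library held more of the 4 progenitor markers, at 188.7 CPM against 73.0 after BDNF and 83.1 after glu/gly. In the same order they stood at 135.3, 75.7 and 78.9 CPM on RPFs. On TAIL-seq tags they lay closer together, at 152.5, 140.9 and 130.1 CPM. The part of this difference was not tested.

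Nr4a2 had 0, 5 and 6 RNA-seq reads and 33, 30 and 43 RPFs in the unstimulated, BDNF and glu/gly cultures. Its RPF ratio was 1.07 for BDNF (0.628 to 1.80) and 2.01 for glu/gly (1.25 to 3.26). Nr4a3 had 2, 3 and 14 RNA-seq reads and 294, 316 and 186 RPFs. Its RPF ratio was 1.26 for BDNF (1.07 to 1.48) and 0.976 for glu/gly (0.808 to 1.18), so that no 2-fold change was seen on RPFs at a depth that would have shown one. On RNA-seq reads, Nr4a3 was 5.92-fold higher after glu/gly, with an interval from 1.36 to 53.7 that rests on 2 control reads.

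Ratios of at least 2 were uncommon among all genes. For BDNF they were found in 2.52% of genes on RNA-seq reads, 1.17% on RPFs and 1.76% on tags, and for glu/gly in 4.35%, 1.04% and 1.73%. Npas4 and Nr4a1 were past this line in all 3 assays for both stimuli, and after glu/gly Nr4a2 passed it on RPFs and Nr4a3 on RNA-seq reads. By the authors' RPM total the ratio of Nr4a2 was 1.77, below this line.

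The KCl cultures of DIV10 added a time course. At 10 min, RPFs of Npas4 numbered 52 against 35 at 0 min, a ratio of 2.55 once scaled (1.63 to 4.04), and those of Nr4a1 67 against 33, a ratio of 3.49 (2.27 to 5.47). In this comparison 1.61% of genes were at least 2-fold higher on RPFs. RNA-seq at 10 min had 5 reads of each, against 9 and 4 at 0 min, and a change was not detectable at this depth, with intervals from 0.328 to 4.14 for Npas4 and from 0.604 to 14.1 for Nr4a1. RPFs of Nr4a2 (43 against 62) and Nr4a3 (346 against 582) gave ratios of 1.19 (0.788 to 1.79) and 1.02 (0.892 to 1.17).

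At 30 min of KCl Npas4 had 67 RNA-seq reads against 9 at 0 min, 605 RPFs against 35 and 27 tags against 0. These were 11.0-fold (5.48 to 25.2), 53.7-fold (38.2 to 77.9) and, with the control at the floor of 3 tags, at least 7.01-fold. Nr4a1 had 25 reads against 4, 305 RPFs against 33 and 158 tags against 7, or 9.27-fold (3.20 to 36.7), 28.7-fold (20.03 to 42.5) and 17.6-fold (8.33 to 44.4). Both genes had larger ratios on RPFs than on RNA-seq reads. The intervals of reads and RPFs did not overlap for Npas4, but for Nr4a1 those of all assays did. Nr4a2 had 4 reads against 7 and 45 RPFs against 62, and the RPF ratio was 2.257 (1.502 to 3.37) once scaled. Nr4a3 had 282 RPFs against 582, a ratio of 1.51 (1.30 to 1.74). Genes at least 2-fold higher made up 2.78% on RNA-seq reads, 1.72% on RPFs and 3.82% on tags.

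**Figure D2:**
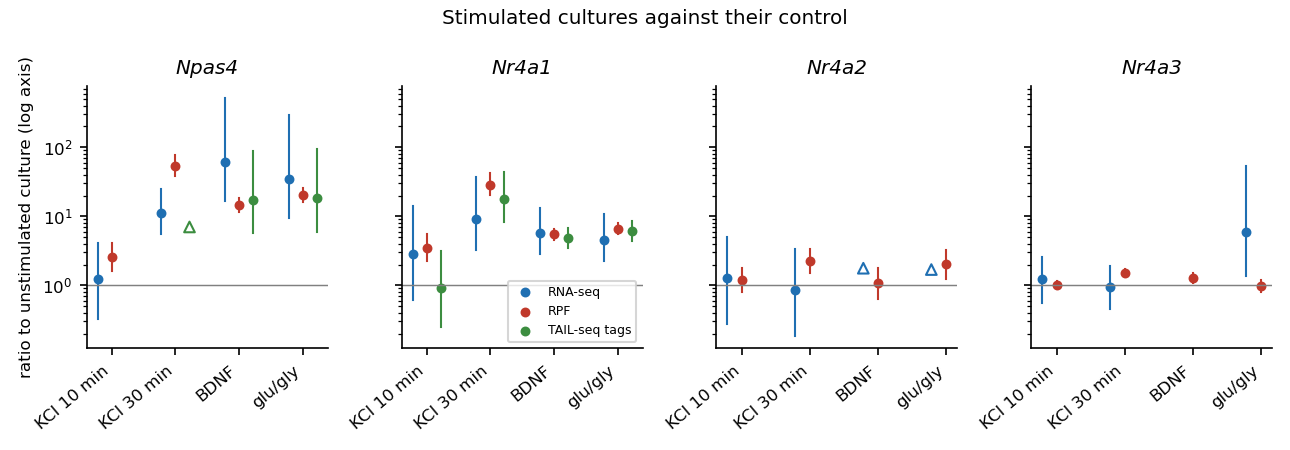
Ratio of each stimulated culture to its unstimulated culture (log axis) for RNA-seq reads, RPFs and TAIL-seq tags, each in CPM, 1 library per culture. Bars are 95% Clopper-Pearson intervals, open triangles are lower bounds with the control at 3 counts, and ratios with both libraries at or under 3 counts are left out. Npas4 and Nr4a1 lie above 1 after 30 min of KCl, BDNF and glu/gly in the 3 assays, while the RPF ratios of Nr4a2 and Nr4a3 lie between 0.976 and 2.257.

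The unstimulated cultures themselves differed. The one of DIV14 had 91 RPFs of Npas4 and 155 of Nr4a1, or 21.0 and 35.7 CPM, and the one of DIV10 had 35 and 33, or 3.69 and 3.48. Npas4 was thus 5.68-fold higher (3.81 to 8.65) and Nr4a1 10.3-fold higher (7.01 to 15.4) at DIV14, where 4.47% of genes were at least 2-fold higher. Nr4a2 and Nr4a3 gave RPF ratios of 1.16 (0.738 to 1.80) and 1.10 (0.956 to 1.27). RNA-seq reads were few and did not follow the RPFs for each gene. Npas4 had 2 reads at DIV14 and 9 at DIV10, a ratio of 0.520 (0.0547 to 2.51), Nr4a1 9 and 4, a ratio of 5.27 (1.47 to 23.4), and Nr4a3 2 and 22, a ratio of 0.213 (0.0243 to 0.866). Age in culture and experiment cannot be told apart here. The GFP culture, a DIV14 culture without stimulus, had RPFs of Npas4 at 30.2 CPM and of Nr4a1 at 31.5 CPM, ratios of 1.44 (1.06 to 1.95) and 0.882 (0.675 to 1.15) to the unstimulated one.

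The tissues asked how the 4 genes differ with age and region. In the hippocampus Nr4a3 was higher in the embryo and the other 3 in the adult. Nr4a3 had 1702 reads in embryonic and 661 in adult hippocampus, or 221 and 90.8 CPM, and 5173 and 2260 RPFs. It was 2.44-fold lower in the adult on reads (adult over embryonic 0.410, 0.374 to 0.449) and 2.14-fold lower on RPFs (0.468, 0.445 to 0.492). Nr4a1 had 50 reads in the embryo and 764 in the adult, a ratio of 16.1 (12.1 to 21.9), and 41 and 1408 RPFs, a ratio of 36.8 (27.0 to 51.5). Nr4a2 had 100 and 588 reads, a ratio of 6.21 (5.02 to 7.76), and 222 and 1984 RPFs, a ratio of 9.58 (8.33 to 11.1). Npas4 had 12 and 113 reads, a ratio of 9.95 (5.48 to 19.8).

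A single RPF of Npas4 was counted in embryonic hippocampus, among 23212489 on genes, against 598 in the adult, and the ratio of 641 has an interval from 115 to 25356. Ratios past 2-fold were common between these tissues. On reads, 23.2% of genes were at least 2-fold higher and 27% at least 2-fold lower in the adult, and on RPFs 30.8% and 33.4%, so that the number of members past this line is not a result about them. The tissues also differed in cells, with 4 progenitor markers together at 1049 CPM in embryonic and 37.5 in adult hippocampus and 7 neuron markers at 2112 and 5191. Their part in the differences was not tested.

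Adult cortex and adult hippocampus did not differ beyond counting error in Npas4 and Nr4a1 mRNA. Npas4 had 33 reads in cortex and 113 in hippocampus, a ratio of 1.24 (0.817 to 1.85), and Nr4a1 174 and 764, a ratio of 0.970 (0.818 to 1.15). Nr4a3 was lower in cortex, with 51 and 661 reads, a ratio of 0.329 (0.242 to 0.437), and 363 and 2260 RPFs, a ratio of 0.464 (0.414 to 0.519). At least 2-fold lower values in cortex were found for 9.91% of genes on reads and 11.8% on RPFs. Nr4a2 was 0.666 of its hippocampal level on reads (0.529 to 0.831) and 1.03 on RPFs (0.946 to 1.13). RPFs of Nr4a1 were 2.30-fold higher in cortex (2.13 to 2.49), where 22.8% of genes were at least 2-fold higher. RNA for the hippocampi was poly(A)-selected and that for the cortex was depleted of ribosomal RNA, so that region and selection cannot be told apart in RNA-seq, and by the authors' RPM total the 4 RNA-seq ratios were 0.814, 0.635, 0.436 and 0.215 for Npas4, Nr4a1, Nr4a2 and Nr4a3.

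Ordered by CPM of RNA-seq reads, Npas4 was highest after BDNF, then glu/gly, then 30 min of KCl, each step larger than counting error, and then 3.51-fold lower in the miR-1 culture. From there down to embryonic hippocampus, at 1.56 CPM, no neighbours could be separated. Nr4a1 began with adult hippocampus (105), BDNF (102) and adult cortex (102), which could not be separated, and its lowest level was in unstimulated DIV10 cells (3.36). Nr4a2 began with adult hippocampus (80.8), above adult cortex (53.8), which lay above embryonic hippocampus (13.0045), and no neighbours below could be separated. Nr4a3 began with embryonic hippocampus (221), above adult hippocampus (90.8), which lay above adult cortex (29.8). No neighbours from there down to the unstimulated DIV14 culture (3.93) could be separated.

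On RPFs, the order of Npas4 began with glu/gly (424 CPM), BDNF (303) and 30 min of KCl (198), and ended with embryonic hippocampus (0.0431). RPFs of Nr4a1 had glu/gly (236), BDNF (196) and adult cortex (150) at the top and embryonic hippocampus (1.77) at the bottom. RPFs of Nr4a2 were highest in adult cortex (94.5) and adult hippocampus (91.6), which could not be separated, and at most 15.3 elsewhere. RPFs of Nr4a3 lay between 48.4 and 104 CPM in 9 of 10 libraries, with 223 in embryonic hippocampus alone above.

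Per length, the order between the genes depended on the sample. By the deposited RPKM of RNA-seq, Npas4 led in the BDNF culture (22.7, against 12.8 for Nr4a1, 1.31 for Nr4a2 and 0.748 for Nr4a3). In adult hippocampus the level of Nr4a1 was 22.1, of Nr4a3 18.3, of Nr4a2 17.1 and of Npas4 2.43. In embryonic hippocampus the level of Nr4a3 was 55.7 and no other member passed 3.43.

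Over the 12 RNA-seq libraries, in log2 RPM, Npas4 was most like Fos (r = 0.950), Junb (0.916) and Egr2 (0.814), and Nr4a1 most like Arc (0.953), Lrtm2 (0.918) and Zscan26 (0.908). Nr4a2 was most like Grm2 (0.984), Cep170b (0.976) and Plekhh1 (0.972), and Nr4a3 most like Irf2bp1 (0.992), Phc1 (0.990) and Wasf2 (0.986). The r between members was 0.647 for Npas4 and Nr4a1 and -0.26 for Npas4 and Nr4a3. These describe 12 libraries that differ in tissue, RNA selection and depth.

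Translational efficiency (TE), the log2 ratio of RPM in RPFs to RPM in RNA-seq, was computed with at least 10 RPM in RNA-seq, a level that the members often missed. Values are given relative to the median of all genes past that cutoff in the same pair of libraries. In the BDNF culture Npas4 stood 0.83 above the median (log2, counting interval 0.55 to 1.11), higher than 80.8% of 5206 genes. In the glu/gly culture it stood 2.05 above (1.73 to 2.39), higher than 97.9% of 5308 genes, and after 30 min of KCl 1.83 above (1.47 to 2.22). Nr4a1 stood 1.45 above the median in the BDNF culture and 1.97 above in the glu/gly culture. Both genes thus stood above most mRNAs of these cultures. In the tissues that passed the cutoff Nr4a1 stood 0.51 below the median in adult hippocampus (-0.51) and 0.84 above in adult cortex, and Nr4a2 0.37 and 1.09 above.

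Nr4a3 had few RNA-seq reads and many RPFs in each culture. Relative to the median TE it stood at 4.61 in the unstimulated DIV14 culture (2 reads and 294 RPFs, interval 2.75 to 7.67), 4.28 with BDNF, 1.94 with glu/gly, 3.54 with GFP, 2.14 in the unstimulated DIV10 culture (22 reads and 582 RPFs, interval 1.52 to 2.82), 1.96 after 10 min and 2.99 after 30 min of KCl. In embryonic hippocampus, adult hippocampus and adult cortex it stood at 0.12, 0.39 and 0.98, on 1702, 661 and 51 reads. All 7 cultures lay above all 3 tissues. So did 15.2% of the 10112 genes with a read and an RPF in each library. RNA of the hippocampi was poly(A)-selected, while that of adult cortex and the DIV14 cultures was depleted of ribosomal RNA. Sample type and selection thus cannot be told apart in the hippocampal values. The culture values are below the cutoff of 10 RPM, which no culture reached for Nr4a3.

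Change of TE after stimulation could be bounded only loosely. No member passed the cutoff of 10 RPM both in a stimulated culture and in its control. Changes of TE of the members are scaled here to reads or tags on listed genes, while medians and SDs over genes are on RPM. These scales differ, so the values cannot be subtracted from each other. After 30 min of KCl the TE of Npas4 was 2.28 higher on the log2 scale (counting interval 0.98 to 3.44). By RPM its log2 TE was 3.27, against 0.545 at 0 min. The value at 0 min rests on 9 reads (1.48 RPM, below the cutoff) and 35 RPFs. On that scale the median change of 3535 genes, all past the cutoff in both cultures, was 0.32 with an SD over genes of 0.54. Nr4a1 changed by 1.63 (-0.44 to 3.29). After BDNF Npas4 changed by -2.10 (-5.19 to -0.17), a value that rests on 2 control reads, and with TAIL-seq tags in place of reads it was -0.27 (-2.62 to 1.40). After glu/gly it changed by -0.80 (-3.89 to 1.15). Nr4a3 changed by -2.60 after glu/gly (-5.79 to -0.45), again on 2 control reads. Nr4a1 changed by -0.08 after BDNF (-1.32 to 1.00) and 0.52 after glu/gly (-0.72 to 1.60), and on tags by 0.19 (-0.37 to 0.73) and 0.12 (-0.45 to 0.66). Between tissues the TE of Nr4a1 was 1.25 higher in adult cortex than in adult hippocampus (0.98 to 1.52), scaled to reads on listed genes. By RPM its log2 TE was 2.15 in adult cortex and 0.37 in adult hippocampus. On that scale the median change of 4813 genes was 0.51 with an SD over genes of 0.72. RNA selection differed between these tissues, so region and selection cannot be told apart in TE.

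Tail lengths were compared to ask whether they change with stimulation. In the cultures, mean Nr4a1 tails were longer after BDNF and glu/gly than without stimulus, with 1 library each. The mean tail was 127.5 nt (45 tags) in the unstimulated DIV14 culture, 156.7 nt (219 tags) after BDNF and 156.3 nt (210 tags) after glu/gly. The differences of 29.2 and 28.8 nt compare with medians over genes of -0.894 and -4.66 nt, and stood 30.1 and 33.4 nt above it among 6710 and 6267 genes with at least 20 tags in both libraries. Of these genes, 36 and 15 had a difference at least as large, Nr4a1 included. The GFP culture, also of DIV14 and without stimulus, had 133.3 nt (21 tags), 5.75 nt above the unstimulated one. These 5.75 nt stood 14.6 nt above the median difference of -8.87 nt among 4191 genes, of which 302 had one at least as large. Cultures without stimulus thus differed as well, and the part of such differences in the 30.1 and 33.4 nt was not tested. In DIV10 cultures Nr4a1 tails were 105.4 nt (7 tags) at 0 min of KCl, 136.5 nt (6 tags) at 10 min and 148.5 nt (158 tags) at 30 min. The DIV10 values at 0 and 10 min rest on too few tags to be read further.

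Npas4 tails were 136.7 nt (3 tags) in the unstimulated DIV14 culture, 160.1 nt (53 tags) after BDNF and 155.1 nt (43 tags) after glu/gly, and 128.6 nt (27 tags) after 30 min of KCl. No control had more than 3 tags, so no difference is given. In the BDNF library the tails of both genes were longer than those of 99.7% or more of 4388 genes with at least 50 tags, whose median was 111.0 nt. In the glu/gly library they were longer than those of 99.9% of 3555 genes, whose median was 107.1 nt. In adult cortex Npas4 had 145.3 nt (10 tags), Nr4a1 107.8 nt (127 tags) and Nr4a2 47.3 nt (4 tags), where the median was 99.5 nt.

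In the visual cortex the mean tail of Nr4a1 was on average 29.2 nt shorter in light mice, a difference that did not pass the test. It was 112.6, 86.5, 129.2 and 116.6 nt in the 4 dark mice, on 35 to 158 tags each, and 77.4, 84.8, 93.7 and 72.4 nt in the 4 light mice, on 894 to 1670 tags each. The groups overlapped through the second dark mouse, the one with the most tags. The means were 111.2 ± 17.9 and 82.1 ± 9.3 nt (SD, n = 4 each), and an exact permutation test over mice did not call the difference of -29.2 nt (two-sided p = 0.0571; the smallest p of this design is 0.0286). With limma over 6807 genes with at least 20 tags in each mouse it did not pass either (adjusted p = 0.174). A comparison relative to each mouse's own median over genes was added after seeing the data. The dark mice stood at 20.2, -4.04, 51.8 and 36.7 nt and the light mice at -5.95, -9.27, -4.07 and -9.20 nt. The groups did not overlap, by -4.04 against -4.07 nt (exact permutation p = 0.0286, unadjusted, the smallest possible). The share of all genes without overlap after such centring was not computed. Each median was over the genes with at least 50 tags in that mouse, from 4778 to 8479 genes.

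Npas4 tails were 78.3, 137.8, 133.6 and 154.5 nt in the dark mice, on 4 to 17 tags each, and 82.4, 75.4, 116.0 and 91.4 nt in the light mice, on 36 to 88 tags each. The first dark mouse lay among the light mice. The difference was -34.7 nt (exact permutation test, two-sided, p = 0.114). Nr4a2 tails were 18, 113.3, 36.3 and 15 nt in the dark mice, on 1 to 11 tags, and 95.6, 111.8, 94.8 and 69.0 nt in the light mice, on 22 to 36 tags. The difference of 47.2 nt (exact permutation test, two-sided, p = 0.143) rests on dark mice with 1, 11, 4 and 1 tags. The p-values of the 3 uncentred differences are unadjusted, and with 3 tests none passed. The centred comparison of Nr4a1 came on top of these.

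**Figure D3:**
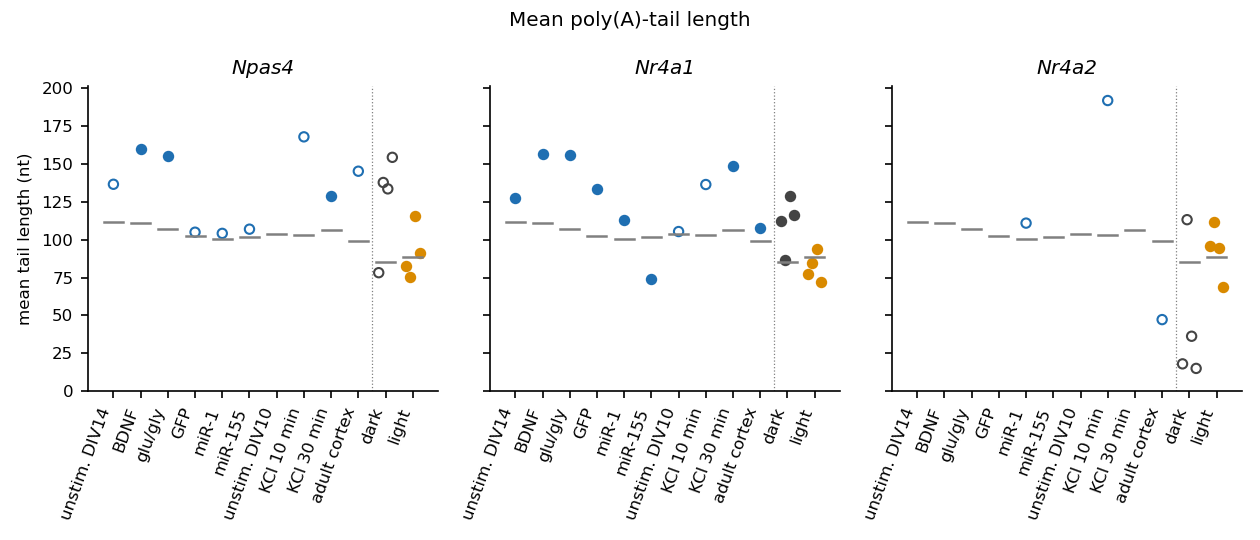
Mean poly(A)-tail length (nt) of Npas4, Nr4a1 and Nr4a2 by TAIL-seq in 9 cultures and adult cortex, and by PAL-seq v2 in 8 mice (right of the dotted line). Points are libraries, filled with at least 20 tags and open with fewer, and grey lines are the median over genes with at least 50 tags (for the mice, the median of the 4 mice). Nr4a1 lies at 156.7 and 156.3 nt after BDNF and glu/gly, above the grey lines, and at 72.4 to 93.7 nt in the light mice.

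The miR-1 and miR-155 cultures asked how an added miRNA changes mRNAs against GFP alone. The mature mmu-miR-155-5p (chr16:84714143-84714165 of GRCm38.p6, plus strand, from RefSeq) is shown with its seed, bases 2 to 8, in capitals.
mmu-miR-155-5p: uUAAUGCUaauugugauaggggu
Of the 4 genes only Nr4a3 held matches of at least 7 nt to this seed in its 3′ UTR, an 8mer (A opposite base 1 included) and a 7mer-A1, in capitals here. Of 16888 3′ UTRs, 2.85% held an 8mer and 11.8% a site of any of these kinds.
Nr4a3 8mer, chr4:48086180-48086203: agaggacaAGCATTAAtgcaggtg
Nr4a3 7mer-A1, chr4:48085673-48085695: gtactttgGCATTAAtttgttga

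Nr4a3 had 15 RNA-seq reads in the miR-155 culture and 5 in the GFP culture, a ratio of 0.637 once scaled, and with an interval from 0.220 to 2.24 a change was not detectable at this depth. For scale, genes with an 8mer had a median log2 ratio of -0.33 (269 genes) and those without a site -0.00296 (6358 genes). Nr4a1, without a site of miR-155, had 77 reads against 7, a ratio of 2.33 (1.08 to 5.9995), where 2.69% of genes were at least 2-fold higher, and on tags 33 against 21, a ratio of 1.28 (0.716 to 2.32). Against GFP it was also higher in the miR-1 culture, with 38 reads against 7, a ratio of 2.51 (1.11 to 6.66), and 53 tags against 21, a ratio of 2.20 (1.31 to 3.84), where 3.69% and 4.33% of genes were at least 2-fold higher. Npas4 had 7 reads in the GFP, 23 in the miR-1 and 47 in the miR-155 culture, ratios of 1.52 (0.631 to 4.19) and 1.42 (0.640 to 3.74). Its tags numbered 5, 9 and 1, and the tag ratio was 1.57 (0.473 to 5.97) for miR-1 and 0.162 (0.00343 to 1.45) for miR-155. Sites of miR-1 were not analysed here.

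Nr4a1 tails were 133.3 nt (21 tags) in the GFP culture, 112.9 nt (53 tags) in that of miR-1 and 73.9 nt (33 tags) in that of miR-155. The difference of -59.4 nt between miR-155 and GFP was the lowest of 3965 genes with at least 20 tags in both, whose median was -0.767 nt. With miR-1 the difference was -20.4 nt, and 5.02% of 3863 genes had a lower one. These comparisons share the GFP library.

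The 3′ UTRs also differ in length and in the pentamer ATTTA, the core of AU-rich elements, which are known to shorten the lives of early-response mRNAs. Npas4 held 1 copy in 714 nt, Nr4a1 3 in 543 nt, Nr4a2 3 in 930 nt and Nr4a3 5 in 3094 nt. The median 3′ UTR had 924 nt and 1 copy, and 64.3% held at least 1.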

How the data were processed

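The members and the gene lists were chosen with earlier results of these data known. RNA-seq and RPF values are the deposited read counts per RefSeq accession, which the authors counted on the open reading frame without its first 50 nt, with RPKM and RPM values that the authors scaled to a total larger than the reads on listed genes. Tail values are the deposited tag counts and mean tail lengths. The hippocampal tail files name no measure, were taken as medians and were not compared with means. The deposited log2 TE (log2 ratios made by the authors) served as an alternative. The submitters' processing notes name STAR 2.4.2 and bedtools, and the study's methods name STAR 2.5.4b for tail tags and mm10. Columns of the combined tables that hold repeats of these values (66) were not used.

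Light was tested with edgeR 4.0.16 (TMM, filterByExpr, quasi-likelihood, Benjamini-Hochberg over 9554 genes, call at 0.05) and, for tail lengths, with limma 3.58.1 and, for the members, exact permutation over mice with scipy 1.17.1, since no member had the planned 50 tags in every mouse. DESeq2 1.42.0 was an alternative. The edgeR fit was tested on simulated data. Cultures and tissues have 1 library per assay: ratios of CPM have 95% Clopper-Pearson intervals, changes of TE exact conditional intervals, and levels Poisson intervals. A called ratio is at least 2-fold, a control under 3 counts was set to a floor of 3 for calls, and shares over all genes need 10 counts in either library. Intervals cover counting error only, and reads are not independent molecules. Which cultures shared a preparation batch was not used here. The 4 members were named everywhere, list genes only where called (at most 8 per list) and the 3 genes most like each member by Pearson r. Sequences are from RefSeq, GRCm38.p6, where 17010 accessions had a symbol. Nothing ties a numbered dark mouse to the light mouse of that number. The RPF libraries of the miR-1 and miR-155 cultures, whose labels contradict themselves, were put in no group. They are set against GFP only among the flagged results.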

Additional observations from a re-analysis of the deposited data

Results flagged for a closer look

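RPFs of several members in 2 libraries left out of the comparisons above stood above those of the GFP culture. The share of all genes above GFP by the same rule was not computed. A rise of these members thus cannot be told apart from a general shift between the libraries. The labels of these libraries, from cultures with a miRNA, contradict themselves, and they were put in no group. The first, with 817114 RPFs on genes, held 79.5 CPM of Npas4 (GFP 30.2), 137 of Nr4a1 (GFP 31.5) and 131 of Nr4a3 (GFP 89.8), each with an interval above that of GFP. The second, with 6428048 RPFs, held 53.5 of Npas4, 78.7 of Nr4a1 and 17.1 of Nr4a2 (GFP 9.15), in CPM. Nr4a2 in the first (17.1, interval 9.37 to 28.7) and Nr4a3 in the second (103) did not clear it.

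Mean tails of Npas4 and Nr4a1 had differences of opposite sign in cultures and in the visual cortex, where the uncentred differences did not pass the exact permutation test. In the BDNF and the glu/gly culture, with 1 library each, both means were above those of the control, and in each of the 4 light mice both were shorter than the mean of the dark mice, with light minus dark at -34.7 nt for Npas4 (exact permutation p = 0.114) and -29.2 nt for Nr4a1 (exact permutation p = 0.0571). The difference between the settings was not tested. They differ in stimulus, in time (30 min against 1 h) and in the method of tail sequencing, and the control of Npas4 had 3 tags.

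No mouse stood apart from its group in tags or tail length of the 3 genes by Dixon's criterion for 4 samples. Chance would flag about 1 in 20 groups.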

How the results depend on the processing

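Under each of the 12 alternatives the 3 light responses kept their call, with log2 fold changes of 3.898 to 4.65 for Nr4a1, 3.02 to 3.51 for Nr4a2 and 2.36 to 3.45 for Npas4, and largest adjusted p of 4.72e-07, 0.000151 and 0.00137. Without a mouse, 94 to 130 genes were called higher and 6 to 20 lower; without a filter on low counts 30 were lower in place of 12. Numbered mice were not pairs (r of same-numbered mice -0.19 to 0.04 for tags): with the replicate block 103 genes were higher and 10 lower, and no member's call changed. Genes with a changed tail numbered 10 with 50 tags, 4 with 10 tags, 0 with 1 tag, 1 on log2 length, 5 with 20 tags on log2 length and 1 with the replicate block; without a mouse they numbered 1 to 21 with 50 tags (21 without light mouse 4, 19 without dark mouse 1, 1 without dark mouse 3, dark mouse 4 or light mouse 2, and 2 without dark mouse 2 or light mouse 3) and 4 to 59 with 20 tags (59 without light mouse 4, 27 without light mouse 1, 26 without dark mouse 1, 22 without dark mouse 2 and 4 without dark mouse 3, in place of 8). The Nr4a1 tail difference ranged from -37.4 to -23.2 nt. By limma it passed without dark mouse 1 at 50 tags (-28.7 nt, adjusted p = 0.0282), without dark mouse 2 at 20 tags (-37.4 nt, 0.00953) and without light mouse 3 at 20 tags (-33.1 nt, 0.0282), but its adjusted p was 1.00 without dark mouse 3. Relative to each mouse's median it was -33.3 nt (exact permutation p = 0.0286). The settings with 1 tag, with centring, and with 20 tags combined with log2 length, the block or a left-out mouse were chosen after seeing the data. The cause was not tested.

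Of 187 alternative values in cultures and tissues, 177 lay within the main interval and none reversed a ratio whose interval excluded 1. By the authors' RPM total, adult over embryonic hippocampus was 4.97 for Nr4a2 and 0.328 for Nr4a3 on reads, adult cortex over hippocampus 0.814, 0.635, 0.436 and 0.215 for Npas4, Nr4a1, Nr4a2 and Nr4a3, and DIV14 over DIV10 1.28 for Nr4a3 on RPFs. By TMM, adult over embryonic hippocampus was 11.5 for Nr4a2 and 0.563 for Nr4a3 on RPFs. By the RPM total the RPF ratio of Nr4a2 after glu/gly fell to 1.77, below the 2-fold line. On tags, miR-155 over GFP was 0.162 for Npas4. Depth limits Nr4a2 and Nr4a3 in RNA-seq of cultures and Nr4a2 in tail libraries.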
